A study of Xenopus tropicalis with 18 samples.

Results

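Of the 9867 regions at which thyroid hormone receptor (TR) signal was counted in tadpole intestine, 1146 carried a called peak in at least 2 of the 3 T3-treated TRαKO libraries and in fewer than 2 of the 3 libraries of each of T3-treated TRβKO, T3-treated wild type and untreated wild type. These 1146 regions are the subject here and are called the members. They were chosen by the deposited peak calls of 12 libraries, so differences that involve those libraries describe the choice. Counts of called regions are given for them only as descriptions beside the share over all regions, and they support nothing. Untreated TRαKO and untreated TRβKO, 6 libraries in all, played no role in it.

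The animals were Xenopus tropicalis tadpoles at stage 54, before metamorphosis, and whole intestine was used. The groups were TRαKO with T3, TRαKO without T3, TRβKO with T3, TRβKO without T3, wild type (WT) with T3 and WT without T3, with 3 libraries each, described as biological replicates. T3, the active hormone, was given at 10 nM for 18 h. Chromatin was precipitated with an antibody to TR, for which the labels do not say which receptor it recognises, and the signal was set against neither input nor mock chromatin. The labels name neither the alleles nor the number of animals behind a library. The series text also writes TRαLKO for the first knockout. Genotypes could not be checked from these data, and cell types of the intestine cannot be read from them.

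TRα and TRβ are nuclear receptors that sit on DNA, usually paired with a retinoid X receptor, with or without hormone. Without hormone they recruit corepressors and keep target genes low, and with T3 they recruit coactivators and raise them. In the frog intestine this switch drives metamorphosis, in which larval epithelial cells die and adult stem cells build a new epithelium.

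Among the groups the choice read, peaks in at least 2 of 3 libraries are limited to T3-treated TRαKO at these regions. Other peak calls and the signal are not so limited. No peak in any library outside T3-treated TRαKO was found at 547 members (47.7%). At 221 members (19.3%, against 47.4% of all regions) the mean in T3-treated WT was at or above that in T3-treated TRαKO. The mean in T3-treated TRβKO was so at 155 members (13.5%, against 30.6% of all regions). Such counts moved with the scaling. The fitted difference to T3-treated WT was above 0 at 906 of 1127 tested members. It was so at 980 with TMM scaling, explained below, and at 996 of 1124 with all tags before the duplicate filter. Over all tested regions these counts were 4833 of 9342, 5544 and 5817 of 9451. To T3-treated TRβKO it was above 0 at 965, 868 and 1007 members, and at 6415, 5621 and 6917 regions. The depth behind the calls differed between groups. Tags kept after the duplicate filter, in units of 1000000 (M), numbered 6.03 to 8.02 M in TRαKO with T3 and 7.49 to 9.28 M in TRαKO without T3. They numbered 2.76 to 3.28 M in TRβKO with T3 and 5.22 to 5.80 M in TRβKO without T3. In WT they numbered 2.29 to 2.53 M with T3 and 12.4 to 17.1 M without. The filter removed 21.4% to 22.4% of tags in T3-treated WT, 15.7% to 16.2% in T3-treated TRβKO and 7.57% to 10.9% in T3-treated TRαKO. A member held a median of 17 to 20 reads in each T3-treated TRαKO library, against 5 reads in each T3-treated TRβKO library and 4 reads in each T3-treated WT library. No member was at 0 reads in a T3-treated TRαKO library, whereas 61 to 95 were in the T3-treated TRβKO libraries and 120 to 139 in the T3-treated WT libraries. Depth and group cannot be told apart for these 3 groups. Untreated WT was the deepest group and the estimated fragment length there was 255 to 283 bp, against 295 to 298 bp in the other libraries.

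**Figure D1:**
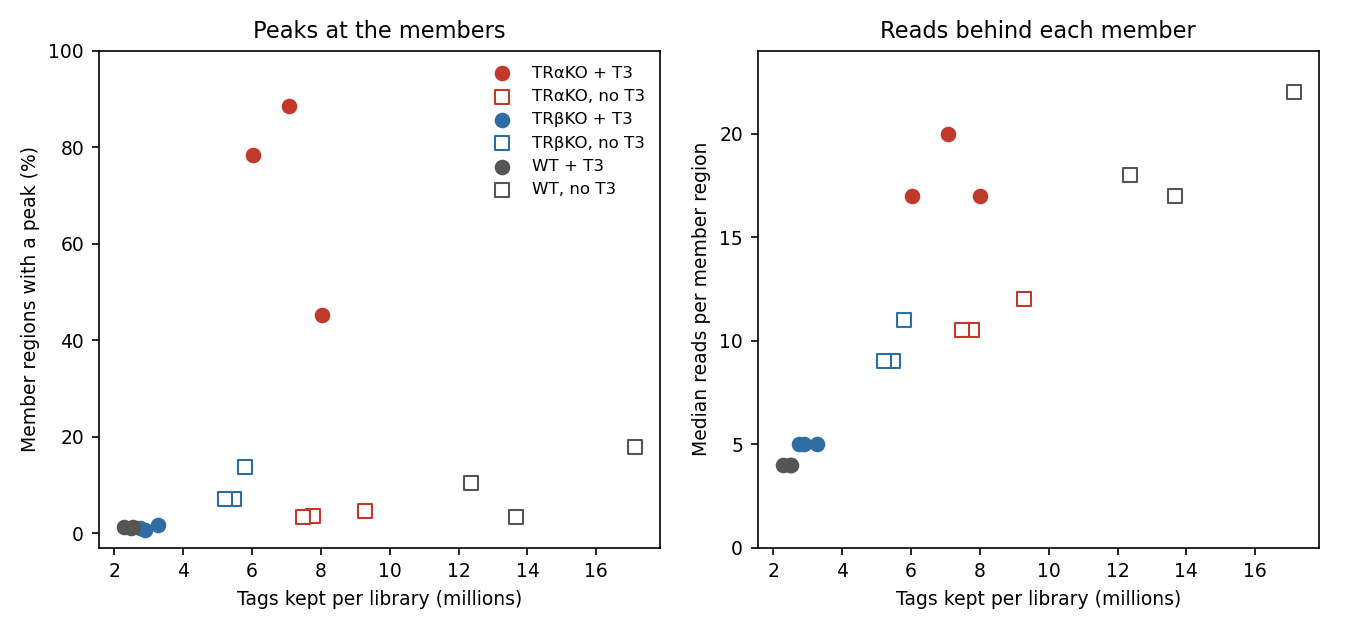
Each point is 1 library, placed by its tags kept (M); the left panel gives the percentage of the 1146 members with a called peak and the right panel the median number of reads per member. The T3-treated TRαKO libraries (filled red) stand at 45.2% to 88.5% of members, and the T3-treated TRβKO and WT libraries (filled blue and grey) lie at the low end of depth with medians of 5 and 4 reads.

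Most members were called in a bare majority of the TRαKO libraries. Peaks were present in exactly 2 T3-treated TRαKO libraries at 1008 members (88.0%) and in all 3 at 138 (12%). Replicates 2 and 3 alone accounted for 628 members, replicates 1 and 2 for 248, and replicates 1 and 3 for 132. Replicate 1 was the deepest of the group but had the fewest peaks, 3039 over the genome against 6565 and 4592, and 2.21% of its tags fell in the counted regions against 2.41% in each of the others. Levels were also compared where the third replicate lacked a peak. In replicate 1, the 628 members without a peak had a median of 1.62 CPM (reads per 1000000 tags kept), the same as all regions without a peak there, and 42.8% of them exceeded all 3 untreated TRαKO libraries, against 35.5% of all regions without a peak there. The same share was 56.8% in replicate 2 and 56.9% in replicate 3, against 35.2% and 38.8% of all regions.

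The peaks at the members were low. Their median pileup, the height at the summit in extended tags as the authors' peak caller gave it, was 13, 13.5 and 13 in replicates 1 to 3. The median fold enrichment over the local background of the same library was 5.15, 5.43 and 5.47. The other regions with at least 2 T3-treated TRαKO peaks had median pileups of 17, 15 and 14 and fold enrichments of 6.04, 5.99 and 6.02. No peak was found in the other 9 libraries that the choice read at 732 members (63.9%), and the remaining 414 had a peak in 1 library of at least 1 of those groups. In the libraries the choice did not read, 108 members (9.42%) had a peak in at least 1 untreated TRαKO library and 258 (22.5%) in at least 1 untreated TRβKO library. Peaks in at least 2 libraries were found at 18 members (1.57%) in untreated TRαKO and 53 (4.63%) in untreated TRβKO. The same shares over all regions were not counted, and shares per library are given below.

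Around the threshold the levels changed by degrees. The median of the group means in T3-treated TRαKO was 2.61 CPM over the members. It was 2.03 CPM over the 2114 regions with a peak in exactly 1 of those libraries and fewer than 2 in each other group. It was 3.16 CPM over the 300 regions that failed only because another group had exactly 2 peaks. In all, 891 regions with at least 2 T3-treated TRαKO peaks were left out because another group also had at least 2. Those had a median of 4.59 CPM in T3-treated TRαKO and 7.74 CPM in T3-treated WT.

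The members formed a narrow band of signal. In T3-treated TRαKO the quartiles were 2.19 and 3.09 CPM, and the 3 libraries had medians of 2.12, 2.82 and 2.82 CPM. The medians in untreated TRαKO were 1.35, 1.29 and 1.40 CPM, below every T3-treated TRαKO library. They were 1.73, 1.52 and 1.81 CPM in TRβKO with T3 and 1.64, 1.90 and 1.72 CPM in TRβKO without T3. WT had medians of 1.61, 1.58 and 1.75 CPM with T3 and 1.24, 1.29 and 1.46 CPM without. The median over members was thus higher in every untreated TRβKO library than in every untreated TRαKO library. The library medians over all regions had the same order, at 1.46 to 1.55 CPM in untreated TRβKO and 1.34 to 1.41 CPM in untreated TRαKO. Over all 9867 regions the median of group means was 1.98 CPM in TRαKO with T3, 1.41 CPM in TRαKO without, 1.56 CPM in untreated TRβKO and 1.81 CPM in WT with T3.

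**Figure D2:**
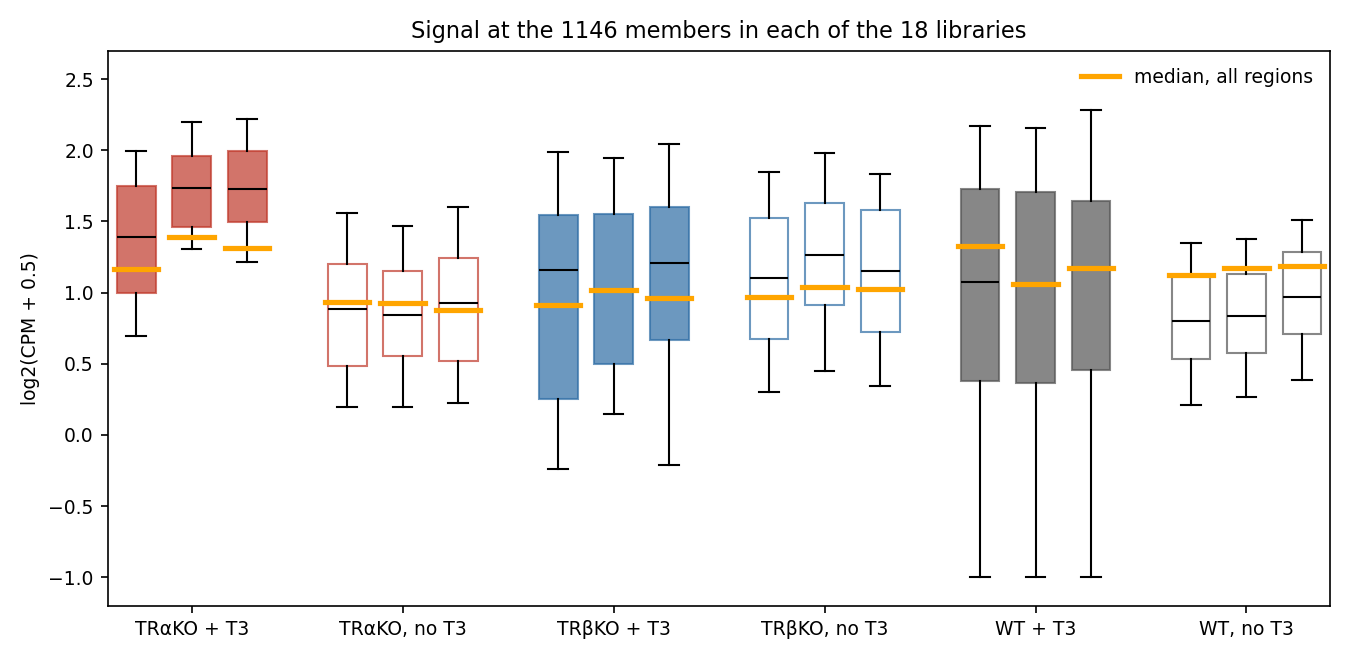
Boxes give log2(CPM + 0.5) at the 1146 members in each library (quartiles, black line the median, whiskers the 10th and 90th percentiles) and orange bars the median over all 9867 regions. The T3-treated TRαKO medians lie above those of the other 5 groups, and the shallow T3-treated TRβKO and WT libraries show the widest spread.

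T3-treated TRαKO had the highest mean of the 6 groups at 734 members (64.0%, against 21.77% of all regions). T3-treated WT was highest at 168 (14.66%, against 26.04% of all regions). Untreated TRβKO was highest at 115 (10.035%, against 10.86% of all regions). T3-treated TRβKO was so at 109 (9.51%, against 11.34% of all regions). Untreated TRαKO was highest at 20 (1.745%, against 5.12% of all regions) and untreated WT at none (24.87% of all regions). All 3 T3-treated TRαKO libraries lay above all 3 untreated TRαKO libraries at 573 members (50%), against 25.5% of all regions, and below them at 3 (2.73% of all regions). They lay above all 3 T3-treated TRβKO libraries at 320 members (18.7% of all regions) and below them at 32 (8.67% of all regions). They lay above all 3 T3-treated WT libraries at 252 (9.42% of all regions). They lay below all 3 T3-treated WT libraries at 36 members (12.3% of all regions).

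Differences were fitted with edgeR's quasi-likelihood test over the 9342 regions with enough reads, and a region was called at a Benjamini-Hochberg adjusted p under 0.05. Of the members, 1127 entered this fit and 19 had too few reads. Between TRαKO with T3 and TRαKO without T3, 114 members were called higher and 0 lower (8.60% and 0.0749% of all tested regions). An unadjusted p under 0.05 was found at 430 members and at 1904 of all 9342 tested regions. The median log2 difference was 0.88 over the tested members and 0.46 over all tested regions. With TMM scaling, which centres regions on each other in place of tags kept, these medians were 0.41 and -0.0049, and 38 members were called higher and 0 lower (357 and 67 of all tested regions). Against TRβKO with T3, 51 members were called higher and 4 lower (4.13% and 6.25% of all tested regions), with medians of 0.64 over members and 0.39 over all tested regions. TMM scaling gave 33 higher and 10 lower (248 and 675 of all tested regions), with medians of 0.45 and 0.21. Against WT with T3, 38 were called higher and 10 lower (1.08% and 7.30% of all tested regions), with medians of 0.57 and 0.04. TMM scaling gave 55 higher and 5 lower (144 and 508 of all tested regions), with medians of 0.73 and 0.20. Against untreated WT, 149 were called higher and 0 lower (10.0% and 1.12% of all tested regions). Here 478 members and 1956 of all tested regions had an unadjusted p under 0.05. The peak calls that chose the members come from the same libraries, so these counts describe the choice. No member was called higher in T3-treated TRαKO than in all 3 of the groups it was set against. Of all tested regions, 3 (0.032%) were. An unadjusted p under 0.05 in all 3 was found at 20 members, and this was not counted over all regions. DESeq2 called 0 members against all 3 as well, with 10 at an unadjusted p under 0.05, again not counted over all regions.

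Some members were called higher with T3 in every genotype. The choice read both WT groups and the T3-treated groups of both knockouts, so the following counts describe the members and test nothing about them. WT with T3 was called higher than WT without T3 at 75 members and lower at 2 (10.2% and 1.08% of all tested regions). TRβKO with T3 was called higher than TRβKO without T3 at 62 and lower at 22 (9.49% and 2.27% of all tested regions). TMM scaling gave 69 members higher and 9 lower in WT (902 and 241 of all tested regions) and 60 higher and 34 lower in TRβKO (863 and 323 of all tested regions). Over the tested members the median T3 difference was 0.30 in WT and -0.21 in TRβKO. The WT median depended on the scaling, at 0.0114 with TMM and -0.056 with DESeq2. At 46 members (4.08% of those tested, against 6.63% of all tested regions) the T3 difference was called higher in all 3 genotypes. Their median level was 3.92 CPM in TRαKO with T3 and 0.885 CPM in TRαKO without. It was 5.79 CPM in TRβKO with T3 and 1.03 CPM in TRβKO without, and 6.83 CPM in WT with T3 and 0.736 CPM in WT without. These members, by their choice, had a peak in at most 1 T3-treated WT library. Their median was higher in T3-treated WT than in T3-treated TRαKO, but the call that picked them favours a high T3-treated WT level.

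**Figure D3:**
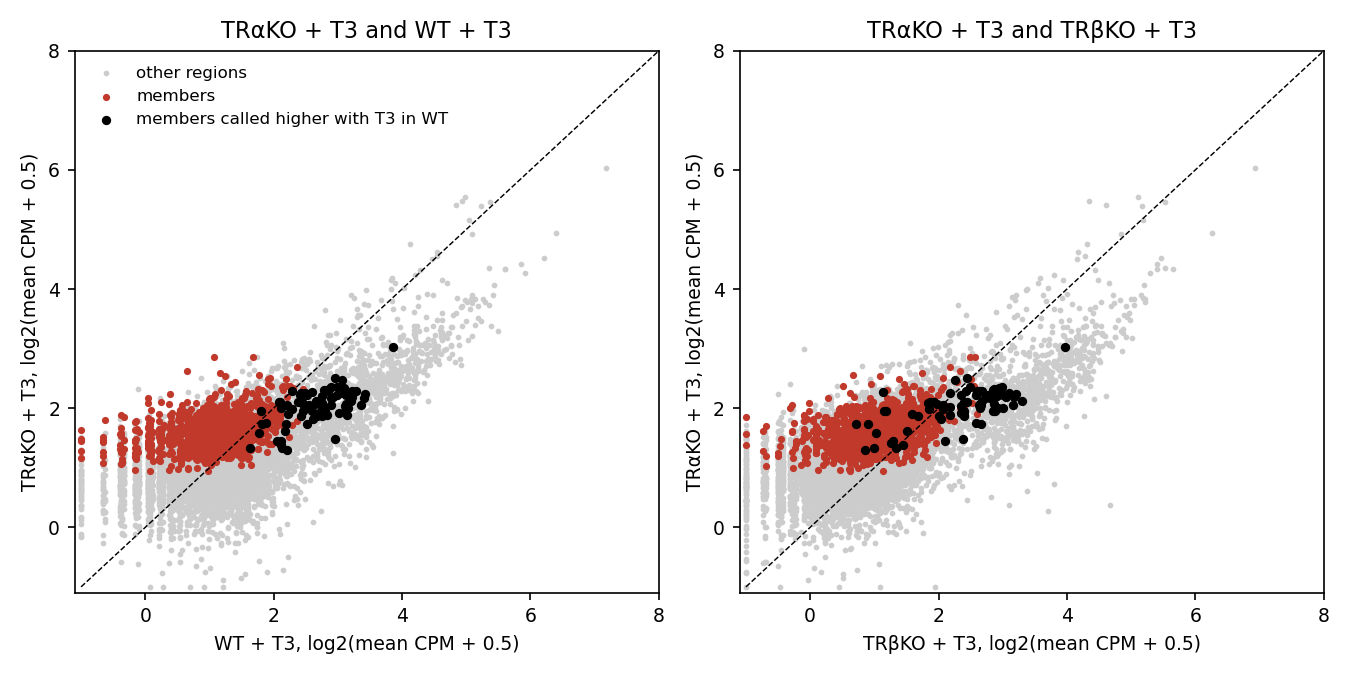
Each point is a region, with log2(mean CPM + 0.5) in T3-treated TRαKO on the vertical axis and in T3-treated WT (left) or T3-treated TRβKO (right) on the horizontal axis; the dashed line marks equal levels. Most members (red) lie above the line, and of the 75 members called higher with T3 in WT (black), 73 lie below it against WT and 54 against TRβKO. The call that picked the black points favours a high T3-treated WT level.

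The highest member of all lay on chromosome 3 at 140178428 to 140178968 in the files' coordinates, whose genome build the sources used here do not name. It was singled out after its values were seen. It has no gene within 10 kb and ends 14332 bases before the counted region of thibz, a transcription factor gene of the direct T3 response that had peaks in all 18 libraries and is no member. The member had 58, 41 and 60 reads, or 7.23, 5.79 and 9.96 CPM, in T3-treated TRαKO, against 1.54, 1.18 and 1.07 CPM in untreated TRαKO. It had 14.2, 17.7 and 13.8 CPM in TRβKO with T3, against 2.19, 1.04 and 0.766 CPM in TRβKO without. In WT it had 12, 16.2 and 13.6 CPM with T3, against 1.76, 2.51 and 1.46 CPM without. T3-treated libraries lay above untreated ones in each genotype, and the TRαKO libraries were the lowest of the 3 T3-treated groups, although WT had no peak call there.

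The list for transport and metabolism, 41 genes with 21 counted regions, held 6 members, near pik3r1 and at acaca, cpt1a, slc5a6 and slc15a2, the last with 2. At slc5a6, which encodes a sodium-dependent vitamin transporter, the member inside the gene (chromosome 5, 154469870 to 154470326) had 3.24, 3.81 and 3.98 CPM in TRαKO with T3, against 0.257, 0 and 0 CPM in TRαKO without. That is 77 reads against 2, a ratio per tag of 44.7 with a 95% counting interval of 12 to 376. The same region had 10.4, 5.18 and 4.72 CPM in TRβKO with T3, against 0.366, 1.21 and 0.575 CPM in TRβKO without, and 9.23, 5.53 and 10.1 CPM in WT with T3, against 0.951, 0.409 and 1.29 CPM in WT without. The groups with and without T3 did not overlap in any genotype. At acaca, an acetyl-CoA carboxylase gene, the means were 2.5 ± 1.0 CPM in TRαKO with T3, against 1.34 ± 0.27 in TRαKO without, and 0.967 ± 0.49 CPM in WT with T3, against 1.52 ± 0.30 in WT without (SD, n = 3 each). Near pik3r1, a regulatory subunit gene of phosphoinositide 3-kinase, they were 2.41 ± 0.41 CPM in TRαKO with T3, against 1.59 ± 0.18 in TRαKO without, and 0.689 ± 0.25 CPM in WT with T3, against 1.64 ± 0.47 in WT without. The WT mean was lower with T3 than without at both, the reverse of slc5a6. The T3-treated WT values rest on 1, 3 and 3 reads at acaca and 1, 2 and 2 near pik3r1. TRβKO averaged 1.61 ± 1.3 CPM with T3 and 1.47 ± 0.53 without at acaca. Near pik3r1 it averaged 2.46 ± 0.64 CPM with T3 and 1.99 ± 0.43 without. Both regions lie outside the members that the naming rule takes from this list.

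The 2 members inside slc15a2, a proton-coupled peptide transporter of epithelia, lie on chromosome 9 at 88665896 and 88675642. At the first, CPM was 5.36, 3.95 and 1.99 in TRαKO with T3, against 0.772, 0.323 and 0 in TRαKO without, and 2.41, 6.32 and 10.1 in WT with T3, against 1.02, 0.643 and 0.162 in WT without. TRβKO had 3.46, 5.79 and 0 CPM there with T3, against 0.731, 0.69 and 1.34 without, and these overlapped. At the second, the means were 3.18 ± 0.61 CPM in TRαKO with T3, against 1.04 ± 0.26 in TRαKO without (SD, n = 3 each), and 8.37 ± 0.71 CPM in WT with T3, against 1.04 ± 0.40 in WT without. Both regions had a peak in 1 T3-treated WT library and 1 T3-treated TRβKO library. At cpt1a, the carnitine transferase that admits long-chain fatty acids to mitochondria, CPM was 2.0, 6.07 and 4.81 in TRαKO with T3, against 0.386, 1.72 and 0.401 in TRαKO without. It averaged 4.87 ± 1.6 CPM in WT with T3, against 0.833 ± 0.28 in WT without. The 3 T3-treated groups overlapped at cpt1a.

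Near ihh, which encodes the Indian hedgehog ligand that gut epithelium sends to the mesenchyme, the member on chromosome 9 at 82978201 to 82978626 had 4.24, 2.40 and 4.31 CPM in TRαKO with T3, against 0.514, 0.539 and 0.534 CPM in TRαKO without. It had 9.64, 6.72 and 4.37 CPM in WT with T3, against 0.146, 0.818 and 1.05 CPM in WT without. All 3 T3-treated WT libraries exceeded all 3 T3-treated TRαKO libraries. At fosl2, a subunit of the transcription factor AP-1, CPM was 3.87, 5.22 and 4.81 in TRαKO with T3, against 0.900, 1.08 and 0.401 in TRαKO without, with a peak in all 3 T3-treated TRαKO libraries and in none of the other 15. WT averaged 6.91 ± 2.0 CPM at fosl2 with T3, against 1.61 ± 0.64 without (SD, n = 3 each). At nr3c2, the mineralocorticoid receptor gene, the means were 4.17 ± 0.95 CPM in TRαKO, 5.47 ± 1.7 in TRβKO and 5.24 ± 1.3 in WT, all with T3, and between 0.887 and 1.25 CPM in the 3 untreated groups. Here too the peaks were in the 3 T3-treated TRαKO libraries and in no other.

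At some members the T3-treated WT level was well above that of T3-treated TRαKO. Those of errfi1, hnmt, glud1 and fbxl20 were named for being among the 6 highest in T3-treated WT. Their high WT level thus follows from how they were picked. Near errfi1, a feedback inhibitor of the EGF receptor, T3-treated TRαKO had 2.99, 4.37 and 3.65 CPM, against 9.01, 8.23 and 7.98 CPM in T3-treated TRβKO and 7.63, 11.5 and 10.1 CPM in T3-treated WT. Neither of those groups overlapped TRαKO. At hnmt, which inactivates histamine, the means were 3.98 ± 1.4 CPM in T3-treated TRαKO and 10.1 ± 4.7 in T3-treated WT. Near glud1, mitochondrial glutamate dehydrogenase, they were 4.4 ± 1.0 CPM in T3-treated TRαKO and 9.22 ± 2.6 in T3-treated WT. At fbxl20, an F-box protein gene, they were 3.51 ± 0.64 CPM in T3-treated TRαKO and 8.39 ± 2.9 in T3-treated WT. At dyrk1a.2, a protein kinase gene, the means were 4.58 ± 1.0 CPM in T3-treated TRαKO and 8.02 ± 3.5 in T3-treated WT. Near ubald2 both groups averaged 4.37 CPM, and at fam169b both averaged 3.78 CPM.

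Other members stood higher in T3-treated TRαKO than in another T3-treated group. At tom1l1, which encodes an endosomal sorting adaptor, CPM was 4.11, 6.91 and 5.97 in T3-treated TRαKO, 4.5, 5.18 and 3.99 in T3-treated TRβKO and 0, 2.77 and 0.437 in T3-treated WT. Untreated TRαKO had 3.60, 4.09 and 2.80 CPM, untreated TRβKO 2.92, 2.76 and 2.68, and untreated WT 0.804, 0.935 and 2.27. Both knockouts thus stood above WT at tom1l1, with T3 and without it. Near arntl, the gene of the circadian factor BMAL1, CPM was 4.99, 6.21 and 9.13 in TRαKO with T3, against 6.04, 4.95 and 5.61 in TRαKO without. TRβKO averaged 5.41 ± 1.3 CPM with T3, against 5.31 ± 0.93 without, and WT averaged 1.60 ± 1.4 with T3, against 2.54 ± 0.18 without. All knockout libraries exceeded all WT libraries there, and the arntl member had peaks in 3 untreated TRαKO libraries too.

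At stat4, a transducer of interleukin signalling, the means were 3.71 ± 1.2 CPM in T3-treated TRαKO and 0.791 ± 1.4 in T3-treated WT, where 2 of the 3 libraries had 0 reads. Near bdnf, a neurotrophin gene, they were 3.74 ± 0.78 CPM in TRαKO, 2.0 ± 0.39 in TRβKO and 1.24 ± 0.41 in WT, all with T3. Both stat4 and bdnf had a peak in all 3 T3-treated TRαKO libraries and in no other library.

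Near fgf3, a fibroblast growth factor gene, the low groups were others. CPM near fgf3 was 3.87, 5.79 and 6.47 in TRαKO with T3, against 2.83, 3.34 and 2.94 in TRαKO without. It was 1.73, 1.52 and 0 in TRβKO with T3, against 5.30, 5.0 and 4.02 in TRβKO without. The 3 untreated TRβKO libraries all had a peak there. At fam163b the means were 4.65 ± 0.15 CPM in T3-treated TRαKO, 0.921 ± 0.73 in T3-treated TRβKO and 4.28 ± 1.3 in T3-treated WT. In the main fit, stxbp5, a syntaxin-binding protein gene, was the only member called higher against both other T3-treated groups. That is 0.089% of tested members, against 0.118% of all tested regions. The region is named after its values were seen. It had 16, 9 and 15 reads in T3-treated TRαKO, 0, 1 and 0 in T3-treated TRβKO and 0 in each T3-treated WT library. Untreated WT had 6, 14 and 17 reads, untreated TRβKO 11, 5 and 7, and untreated TRαKO 4, 6 and 6. Members so called numbered 0 with DESeq2 and 0 after thinning. They numbered 2 with TMM scaling, 2 with the replicate block, 3 with all tags and 4 in the fit of the compared groups alone. Over all regions these alternatives were not counted.

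Others differed little with T3 in TRαKO. At astl2d.5, an astacin-like metalloprotease gene, CPM was 3.74, 3.53 and 4.15 in TRαKO with T3, against 5.27, 4.52 and 4.14 in TRαKO without. Both stood above TRβKO with T3 (1.47 ± 0.26) and WT with T3 (1.52 ± 1.3), and all 3 untreated TRαKO libraries had a peak. At ebi3, a cytokine subunit gene and among the 12 highest members with a named gene, the means were 5.16 ± 1.4 CPM in TRαKO with T3, against 4.28 ± 0.81 in TRαKO without. At edil3, a gene of an integrin-binding matrix protein, they were 4.58 ± 0.81 CPM in TRαKO with T3, against 3.49 ± 0.28 in TRαKO without.

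At 57 members (5.06% of those tested, against 1.51% of all tested regions) the T3 difference was called higher in TRαKO and in neither WT nor TRβKO. Whether the T3 effect differed between genotypes was not tested there, and the shallow T3-treated WT and TRβKO libraries entered those calls. Their median level was 3.17 CPM in TRαKO with T3 and 0.943 CPM in TRαKO without. It was 1.79 CPM in TRβKO with T3 and 1.86 CPM in TRβKO without, and 1.83 CPM in WT with T3 and 1.5 CPM in WT without. Among them, znf395, a direct T3 response gene by the list used, had 2.99, 2.68 and 1.16 CPM in TRαKO with T3, against 0.514, 0.646 and 0.668 CPM in TRαKO without. At ehmt1, a histone H3 lysine methyltransferase gene, TRαKO had 48 reads with T3 and 4 without, a ratio per tag of 13.9 with a 95% counting interval of 5.10 to 53.2. At zeb2, a transcription factor gene of mesenchymal cells, CPM was 3.74, 5.50 and 4.81 in TRαKO with T3, against 2.31, 1.29 and 2.94 in TRαKO without. TRβKO at zeb2 had 1.73, 2.74 and 3.27 CPM with T3, against 4.2, 6.04 and 5.36 CPM without.

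**Figure D4:**
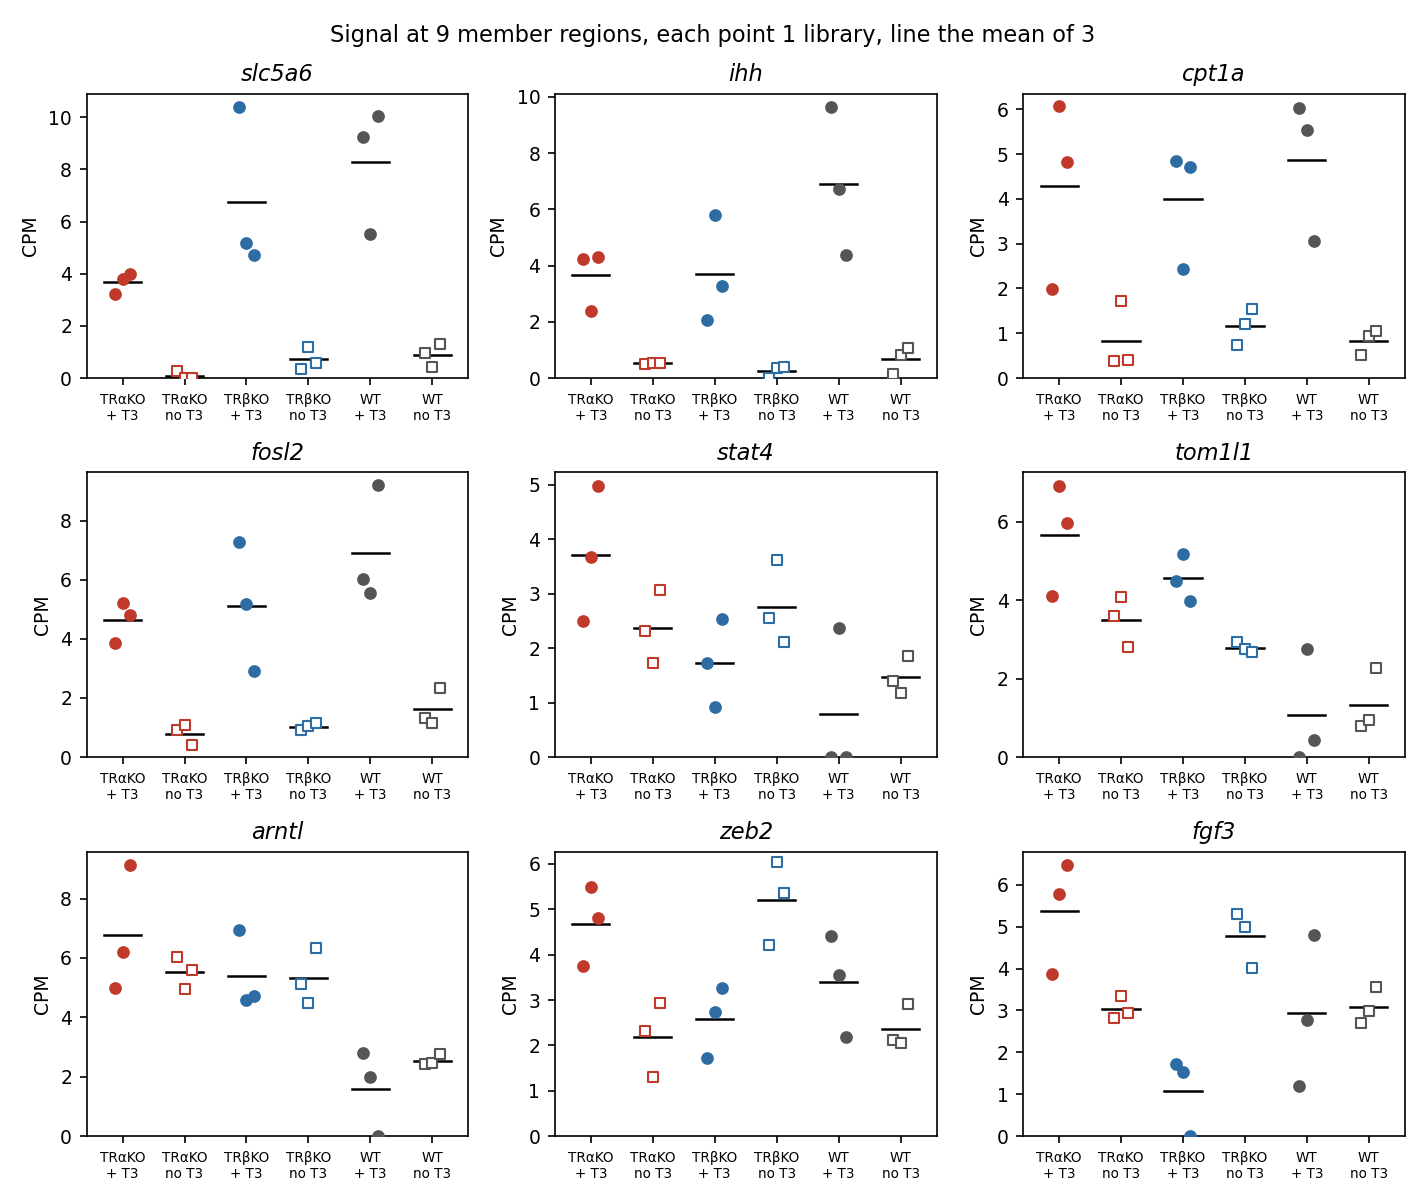
CPM at 9 members in each of the 18 libraries (points) with the mean of 3 libraries (line); filled circles are T3-treated and open squares untreated. At slc5a6, ihh, cpt1a and fosl2 all 3 genotypes stand higher with T3, at tom1l1 and arntl the WT means are the lowest, and at zeb2 and fgf3 untreated TRβKO is close to T3-treated TRαKO.

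Genes by which the hormone response is usually followed held some members. Of 26 regions at genes of the direct T3 response, 2 were members (ihh and znf395), and 17 of the 26 had peaks in at least 2 T3-treated TRαKO libraries. None of the 18 regions at genes of hormone signalling, among them thra and thrb, was a member. The other nuclear receptor genes held 3 members among 10 regions, at ar, esrrg and nr3c2. Chromatin regulators held 2 of 35, near kdm5b and at kmt2d, with 2.15 ± 0.89 and 3.00 ± 1.3 CPM in T3-treated TRαKO. The WNT, hedgehog, Notch and BMP list held 4 of 30, at tcf7 and near hhip, ihh and wnt5a. Near wnt5a, a ligand of the gut mesenchyme, the means were 3.63 ± 0.41 CPM in TRαKO with T3, against 2.29 ± 0.46 in TRαKO without, and 4.19 ± 1.5 CPM in untreated TRβKO. The list for cell death and cell cycle held 1 of 8, near ccnd2, and the matrix list 0 of 9. Markers listed for epithelium held 2 of 7 regions, both at slc15a2. Those of mesenchyme and muscle held 1 of 6, at zeb2, and those of blood and endothelium 0 of 2. The marker genes of neurons and of pancreas had no counted region. Over all regions, 1146 of 9867 were members, and no list was tested against this share.

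Several members fell in the same long gene. Counted by gene, 6 members lay among the 15 regions of adgrl3, an adhesion receptor gene, and again 6 among the 19 of lrrc4c, a synaptic adhesion gene. All 4 regions of cadm2, another cell adhesion gene, were members, as were 3 of 4 in lmf1, the lipase maturation factor. Levels in T3-treated TRαKO were 2.09 to 3.31 CPM at the adgrl3 members and 1.74 to 3.33 CPM at those of lrrc4c. Of these 19 regions in 4 genes, 1, in lrrc4c, was called higher with T3 in TRαKO, against 8.60% of all tested regions. It had 3.74, 3.10 and 3.15 CPM in TRαKO with T3, against 1.41, 1.29 and 0.935 CPM in TRαKO without. Regions of 1 gene share their surroundings and are not independent.

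The comparison that the choice did not touch was that of untreated TRαKO with untreated TRβKO. The members leaned to lower signal in TRαKO. The median log2 difference, TRαKO minus TRβKO, was -0.41 over the 1127 tested members, -0.12 over all tested regions and -0.07 over the tested regions that are no members. It was below 0 at 900 members (79.9%) and at 57.4% of all tested regions. The 3 untreated TRαKO libraries all lay below the 3 untreated TRβKO libraries at 245 members (11.5% of all regions) and above them at 37 (6.29% of all regions). Single members seldom passed: 1 was called higher and 2 lower, against 0.214% and 0.407% of all tested regions, and 125 had an unadjusted p under 0.05, against 956 of all 9342 tested regions. TMM scaling called 2 members higher and 0 lower (28 and 27 of all tested regions), and DESeq2 9 higher and 3 lower (57 and 32 of all tested regions). With TMM scaling the median was -0.28 over members and 0.02 over all tested regions. Relative to all tested regions the members therefore differed by -0.30 under both scalings, and by -0.30 to -0.27 over the other settings tried with all libraries.

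The lean was shared by regions close to the threshold. The 2024 tested regions with a peak in exactly 1 T3-treated TRαKO library and fewer than 2 in each other group read had a median of -0.31. The 890 other regions with at least 2 T3-treated TRαKO peaks had -0.07. It was 0.02 over the 4079 regions with at least 2 untreated WT peaks and fewer than 2 in each T3-treated group. In peak calls the same direction showed. Of the members, 3.67%, 4.63% and 3.32% had a peak in the untreated TRαKO libraries, against 7.07%, 13.8% and 7.16% in the untreated TRβKO libraries. Of the other regions, 4.98% to 9.88% had one in the untreated TRαKO libraries and 4.81% to 11.2% in the untreated TRβKO libraries. The untreated TRβKO libraries had fewer tags kept than the untreated TRαKO libraries.

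**Figure D5:**
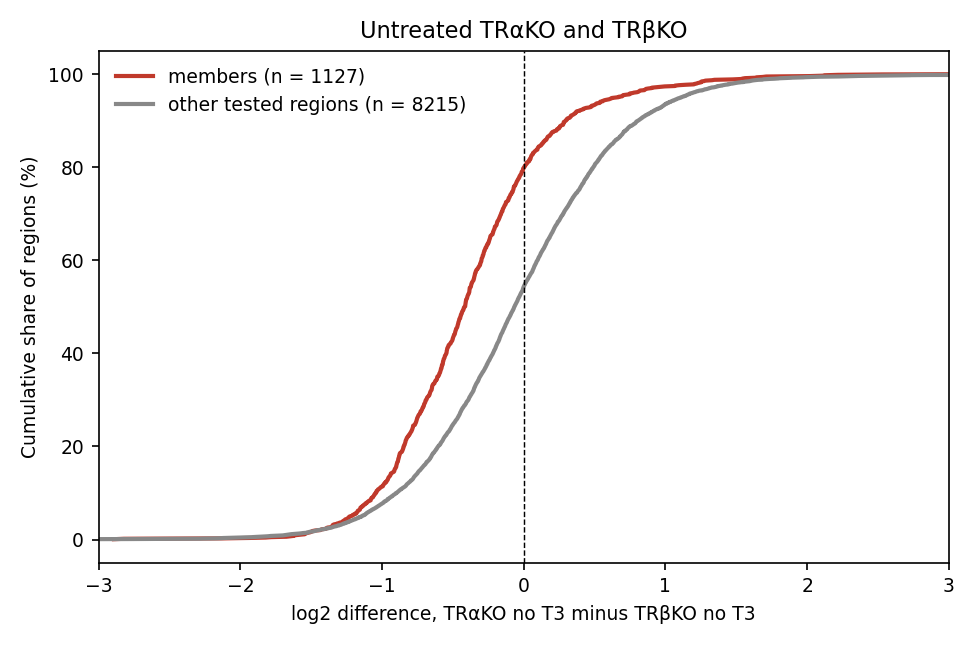
Cumulative share of regions (%) by the log2 difference of untreated TRαKO minus untreated TRβKO, for the 1127 tested members (red) and the 8215 other tested regions (grey). The member curve lies to the left, with 79.9% of members below 0; 25 of the 9342 tested regions fall outside the range of the axis.

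Of the 3 members called, syndig1 and exoc2 were lower in untreated TRαKO. At syndig1, a gene of synapse formation (chromosome 5, 39493255 to 39493760), CPM was 0.900, 0.539 and 0.267 in untreated TRαKO and 2.38, 3.11 and 2.11 in untreated TRβKO, with no overlap. The log2 difference was -2.12 ± 0.55 (SE; edgeR adjusted p = 0.0418). With T3, TRαKO had 3.24, 2.40 and 4.31 CPM. At exoc2, an exocyst subunit gene (chromosome 6, 87106356 to 87106861), CPM was 1.80, 1.18 and 1.60 in untreated TRαKO and 5.12, 4.66 and 3.45 in untreated TRβKO, and the difference was -1.53 ± 0.40 (SE; edgeR adjusted p = 0.0467). All 3 untreated TRβKO libraries had a peak there and none of the untreated TRαKO libraries did. Both calls were lost with the replicate number as a block (edgeR adjusted p = 0.0543 for syndig1 and 0.0667 for exoc2) and with TMM scaling (0.0708 and 0.0886). The syndig1 call was also lost in 5 of the 6 fits that left out 1 library (all but that without TRαKO replicate 1, adjusted p up to 0.26), and DESeq2 gave it no adjusted p. The exoc2 call was lost in all 6 (adjusted p 0.0578 to 0.293), with all tags (0.0549) and after thinning (0.324), and held with DESeq2 (0.018).

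The third was higher in untreated TRαKO and has no gene within 10 kb (chromosome 5, 65723356 to 65723840). It had 22, 25 and 8 reads in untreated TRαKO and 2, 1 and 0 in untreated TRβKO, a ratio per tag of 12.3 with a 95% counting interval of 4.0 to 61.5. The fitted log2 difference was 3.48 ± 0.78 (SE; edgeR adjusted p = 0.00789). With T3 it had 34, 25 and 17 reads in TRαKO and 0, 3 and 0 in TRβKO, so the TRβKO libraries were low under both conditions. WT had 9, 5 and 3 reads with T3, against 15, 26 and 10 without. The call held with TMM scaling and with the block, had no adjusted p from DESeq2, and was lost in 4 of the 6 fits that left out 1 library, those without TRαKO replicate 1 or 2 or TRβKO replicate 2 or 3 (adjusted p up to 0.103).

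Members lay in gene bodies about as often as all regions did, and less often near another counted region. A gene body held 628 of them (54.8%, against 53.5% of all regions), a further 179 (15.6%, against 17.2%) lay within 10 kb of a gene and 339 (29.6%, against 28.8%) did not. A gene end lay within 1 kb of 9.16% of members and 11.4% of all regions. Another counted region lay within 10 kb of 14.7% of members and 25.9% of all regions on the chromosomes. Their median width was 389 bp, against 453 bp. Each of the 10 chromosomes held members, as 9.54% (chromosome 10) to 13.4% (chromosome 4) of its regions. The 807 members with a gene fall on 743 genes, of which 48 have 2 or more. At 16 genes, 17 members share their assigned gene with a region with peaks in at least 2 libraries of both TRαKO and another genotype with T3. The distance between them was not measured, and the share over all regions was not counted.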

How the data were processed

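TR chromatin immunoprecipitation was done on 18 intestine samples, which fall into 6 groups of genotype and T3 per the labels. Per the submitters' processing notes, reads were aligned with Bowtie2 2.3.4.1, peaks were called with MACS2 2.1.1.20160309 and regions were counted with DiffBind. The deposited table holds raw read counts at 9867 regions. The peak files were made with MACS 2.2.7.1, per the file headers, on each library without a control, keeping 1 tag per position and peaks with q under 0.05. The deposited peak lists give, per the file headers, the pileup signal at the summit, not scaled to depth, the −log10 p and q values, and a ratio of the summit to its local background, the fold enrichment. The genome build is not given in the sources used here, and gene names come from RefSeq genes of UCB_Xtro_10.0. Unshifted, 11.4% of regions lay within 1 kb of a gene end, against a median of 7.66% after shifts, with no shift highest on 10 of 10 chromosomes.

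Peaks and regions were matched by an overlap of at least 1 base, and CPM is reads per 1000000 tags kept after the duplicate filter. Counts were fitted with edgeR 4.0.16 (limma 3.58.1, R 4.3.3), with robust quasi-likelihood tests, two-sided, 6 group means over all 18 libraries, tags kept as library size, filterByExpr and Benjamini-Hochberg adjustment over 9342 regions. DESeq2 1.42.0 was an alternative. All p-values measure only the spread among the libraries of a group. Intervals on reads cover counting error only. Python 3.11.15 with pandas 2.3.3, numpy 2.4.6, scipy 1.17.1 and matplotlib 3.10.9 made the other values. The fit was tested on simulated data.

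A region's gene is the one whose body it overlaps, or else the nearest within 10 kb. Named members are the 12 highest in T3-treated TRαKO, those called between the untreated knockouts, the 10 highest with peaks in all 3 T3-treated TRαKO libraries and none in the other 9 libraries read, up to 4 per gene list, those of genes with several members, the 6 largest and 6 smallest T3 differences in TRαKO, and the 6 highest in T3-treated WT. Members, lists and tests were chosen with earlier results of these data known. Members at some genes that this rule names are not reported here. A planned promoter motif search was not done here.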

Additional observations from a re-analysis of the deposited data

Results flagged for a closer look

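At 4 named members the T3-treated TRαKO libraries all lay above the untreated TRαKO libraries, whereas in TRβKO the libraries with T3 all lay below those without. These opposite directions were not tested, and the choice of the members had read the T3-treated groups. They were looked for at the named members only, and their share over all members or all regions was not counted. In TRαKO, all libraries with T3 lay above all without at 50% of members and 25.5% of all regions. Over all tested regions the median log2 T3 difference was 0.46 in TRαKO and -0.16 in TRβKO. All values below are mean CPM with T3 minus mean CPM without.

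Near fgf3 the difference was 2.339 in TRαKO and -3.69 in TRβKO, the widest gap of the 4. At zeb2 it was 2.504 in TRαKO and -2.621 in TRβKO. At bnc1, a zinc finger protein gene, it was 2.227 in TRαKO and -1.12 in TRβKO. At one of the lmf1 members it was 1.753 in TRαKO and -1.221 in TRβKO. Tags kept also differed, with 6.03 to 8.02 M in T3-treated TRαKO and 2.76 to 3.28 M in T3-treated TRβKO (M is 1000000), and the part of depth in these differences was not tested.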

How the results depend on the processing

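The number of members was 1126 when peaks had to cover at least 0.5 of a region, and it moved with the peak rule: 445 with peaks of −log10 q of at least 5, 138 with peaks in all 3 T3-treated TRαKO libraries, 732 with no peak elsewhere, and 370 to 849 when a replicate number was left out (849 without replicate 1, 370 without replicate 2 and 477 without replicate 3).

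Between the untreated knockouts, the median over members was -0.28 with TMM scaling, -0.29 with counts thinned to the shallowest library and -0.27 with DESeq2, and -0.45 to -0.37 without 1 library. Members called numbered 3, against 10 of 730 tested in a fit of the compared groups alone and 12 with DESeq2. They numbered 0 of 161 tested after thinning and 0 to 2 without 1 library. Regions called over the whole table numbered 58, against 77 of 5488 in the fit alone and 89 with DESeq2. They numbered 27 of 1933 after thinning and 35 to 43 without 1 library. Deviations of same-numbered libraries from their group means had correlations of -0.01 to 0.05 over 45 pairs, with a median of 0.0176. Over 90 pairs with different numbers they were -0.06 to 0.02, with a median of -0.0082. The correlations were thus small and slightly higher for the same number, and this difference was not tested. With the replicate block 1 member was called between the untreated knockouts, against 52 of all 9342 tested regions. With this block 1 member was called higher in T3-treated TRαKO than in all 3 groups it was set against, not counted over all regions.

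For TRαKO with T3 against TRαKO without, 114 of 1127 tested members were called, against 38 with TMM scaling and 36 with DESeq2. After thinning 38 of only 161 tested members were called, and 200 of 1057 in the fit of the compared groups alone. Without 1 library 60 to 106 were called. Regions called numbered 810 of 9342 tested, against 424 with TMM scaling and 491 of 1933 tested after thinning. They numbered 564 with DESeq2, 1014 of 7615 in the fit alone and 607 to 685 without 1 library. The member median was 0.88, against 0.41 with TMM scaling and 0.33 with DESeq2. Against T3-treated TRβKO, 55 members were called, with a median of 0.64. After thinning 14 of 161 were called, with DESeq2 31 and without 1 library 29 to 48. The medians were 0.18 after thinning and 0.38 with DESeq2. Whole-table counts were 970, 674 of 1933 after thinning, 866 with DESeq2 and 698 to 852 without 1 library. Against T3-treated WT, 48 were called, with a median of 0.57, whereas 26 of 161 were called after thinning (698 of 1933 regions in all) and 27 to 51 without 1 library. The median was 0.11 after thinning (-0.70 over all tested). Other whole-table counts were 783 in the main fit and 592 to 719 without 1 library. Against untreated WT, 149 were called, with a median of 0.88. After thinning 52 of 161 were called, and 356 of 1135 in the fit of the compared groups alone. With DESeq2 88 were called and without 1 library 83 to 148. The whole-table counts there were 1040, 690 of 1933 after thinning, 1624 of 9667 in the fit alone, 1091 with DESeq2 and 855 to 978 without 1 library. The other medians were 1.27 after thinning and 0.58 with DESeq2. The comparisons of T3 in WT and in TRβKO, and the count of members higher against all 3 groups, were added after seeing the data. For T3 in WT, the member median was 0.30, against 0.0114 with TMM scaling, -0.0142 with all tags, 0.82 after thinning and -0.056 with DESeq2. For T3 in TRβKO it was -0.21, against -0.34 with TMM scaling, 0.35 after thinning, -0.0276 in the fit alone and -0.35 with DESeq2. The sign of the WT median thus differed between settings. In TRβKO the median was above 0 only after thinning, which tested 161 members and gave 0.65 over all tested regions. For T3 in TRβKO, 84 members were called, against 54 of 323 in the fit alone (1099 of 9342 and 890 of 2556 tested regions). Members called higher against all 3 groups numbered 0, where 3 of all tested regions were so called. They numbered 1 with TMM scaling, 1 with all tags, 4 in the fit alone and 0 to 1 without 1 library, settings not counted over all regions.

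Depth limits these results. With medians of 4 and 5 reads per member in T3-treated WT and TRβKO, a missing peak or call there shows no absence of binding. Of the results on named members under alternatives, 744 stayed on their side of the threshold or within the standard error of the main fit. Another 102 moved and 21 lost their call. These results cover the comparison of the untreated knockouts and T3 in TRαKO only. Among them, no difference called in the main fit changed sign. Changes of sign at other members and in other comparisons were not counted. The cause of each shift was not tested, except that thinning and the fit alone tested fewer members.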
